A study of Mus musculus with 4 samples.

Results

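Focal adhesions are the protein plaques through which integrins, the receptors for matrix proteins, hold on to the actin cytoskeleton. Talins and kindlins bind the integrin tail, vinculin, alpha-actinin, filamin, tensins and parvins tie the plaque to actin, and focal adhesion kinase, its relative Pyk2 and the Src family kinases send signals through adaptors such as paxillin and p130Cas to the small GTPases Rac1, RhoA and Cdc42. In mammary tumors driven by the middle T oncogene these proteins are of interest because middle T itself binds and activates Src family kinases and because beta1 integrin, which carries N-glycans, is a known substrate of the sialyltransferase St6gal1. The question was whether transcripts of this machinery differ between tumors that form without St6gal1 and those that form with it.

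The 39 genes were fixed by name, and every probe set whose annotated symbol was exactly one of them was taken. Of the 39, 34 matched 83 probe sets of the 45037 analysed (18193 genes in all), and 5 (Ptk2, Rock2, Pak1, Nedd9 and Fermt1) matched 0 probe sets in the annotation used and were not analysed here. Ptk2 encodes focal adhesion kinase itself, so the kinase at the centre of the plaque is missing from all that follows. By role, the 34 fell into 6 kinases, 13 cytoskeletal linkers, 8 adaptors and scaffolds, 5 GTPases and exchange factors, and 2 caveolins.

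The tumors were mammary tumors of female C57BL/6 mice carrying the polyoma virus middle T transgene (PyV-mT), taken at 110 days of age and 14 days after onset. St6gal1-/- mice gave 2 pools and wild-type littermates gave 2 pools, each pool holding 3 tumors from 3 animals and read on 1 Affymetrix whole-genome mouse array. The oncogene was carried by both genotypes, and the labels do not name the promoter that drives it. The series' design text pairs 1 null with 1 wild-type pool in each of 2 sets, so ratios were formed within a set and the fit held the set as a term. In whole tumor tissue, fewer cells of a type and less RNA per cell cannot be told apart.

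The arrays had median intensities between 588 and 619. Luminal epithelial markers were bright, with the keratin Krt18 averaging 130234 over the 4 arrays. The brighter probe set of St6gal1 gave 2337 and 3642 in the null pools of sets 1 and 2 and 2330 and 2796 in their wild-type partners (log2 ratio 0.19 ± 0.16 SE, limma adjusted p = 0.554). No loss was seen in the pools labelled null. Which exons the null mice miss was not known here, so the probe set may lie outside the deletion, and every direction below rests on the labels. The 3'/5' signal ratio of Gapdh, a measure of RNA integrity and labelling, stood at 0.873 (null) and 0.869 (wild type) in set 1, and at 2.13 (null) and 1.57 (wild type) in set 2. That of beta-actin was 1.53 (null) and 1.63 (wild type) in set 1, and 2.12 (null) and 1.96 (wild type) in set 2.

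None of the 33 listed genes that could be tested passed between null and wild-type tumors, and the ratios on their brightest probe sets were small. Of the 83 probe sets, 63 (of 33 genes) were bright enough to be tested, and limma called 0 of the 63 at an adjusted p of 0.05, against 7.30% of all 22519 probe sets tested (4.05% higher and 3.25% lower in null pools). Without the set term, and likewise without the intensity trend, limma called 0 of all probe sets (1280 and 3486 at an unadjusted p under 0.05), so there the members and all probe sets have the same count of 0. At an unadjusted p under 0.05 there were 7 (11.1%), against 20.6% of all probe sets. A change of 1.5-fold or more in the same direction in both sets was seen in 0 of the 63 and in 4.35% of all probe sets. On the brightest probe set of each gene the log2 ratio of null over wild type ran from -0.35 for Ptk2b to 0.25 for Lims2, with a median of 0.02, and the median over all 11514 genes tested was -0.01. All 33 genes stayed within 1.5-fold in set 1 and again in set 2, as did 82.8% of all genes tested. For 31 of the 33 the 95% interval of the ratio, which is not adjusted for the number of tests, also lay within 1.5-fold either way (62.2% of all genes), the exceptions being Ptk2b and Lims2.

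The members were also bright and had small standard errors. The median standard error was 0.10 for the members and 0.14 over all genes. Among genes at or above the 75th percentile of mean intensity, 30 of 30 members and 91.9% of all genes stayed within 1.5-fold in both sets. Of the probe sets that bright, limma called 0 of 44 member probe sets and 10.8% of all probe sets.

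**Figure D1:**
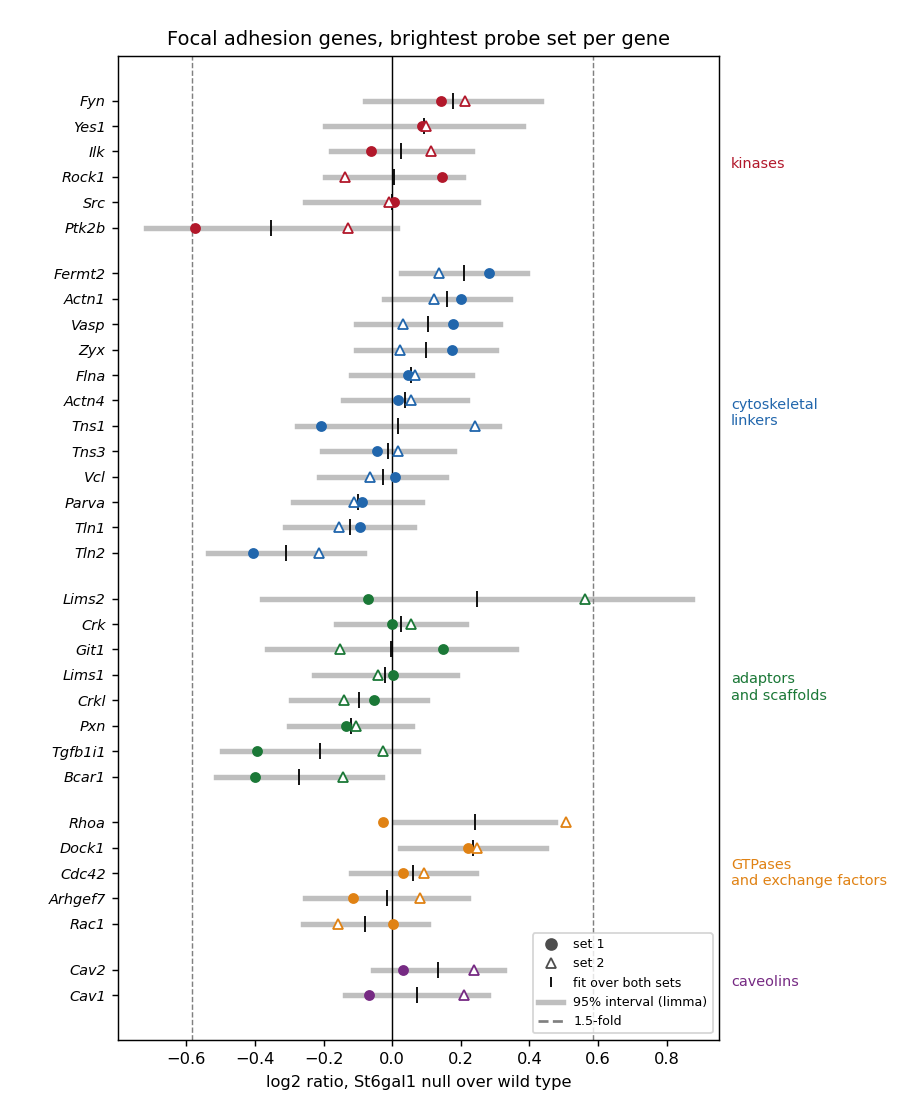
Log2 ratio of St6gal1 null over wild type (x axis) for the brightest probe set of each of the 33 tested focal adhesion genes (rows), by role. Filled circles are set 1, open triangles set 2, ticks the limma estimate over both sets and grey bars its 95% interval. Estimates lie between -0.35 (Ptk2b) and 0.25 (Lims2), and no point of a single set lies beyond the dashed lines at 1.5-fold.

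Most members were well above the level of unspecific signal. That level was set by 13 probe sets of 6 Y-linked genes, which these female animals lack and which read at most 565. On the brightest probe set, 33 of the 34 genes exceeded it on all 4 arrays, and only the exception, Parvb (beta-parvin), did not. Its better probe set gave 589 and 429 in the null pools and 317 and 425 in the wild-type pools. Neither probe set of Parvb reached the mean intensity of 590.6 needed for testing. Over all probe sets 60 exceeded the level on every array, 10 on some and 13 on none.

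Among the kinases, 0 of 11 tested probe sets from 6 genes passed the genotype test, and the 95% interval lay within 1.5-fold for 5 of the 6 genes, Ptk2b being the exception. Fyn and Yes1 were higher in null pools in both sets, Ptk2b was lower in both, and Src, Ilk and Rock1 were mixed. The lowest ratio was that of Ptk2b, which encodes Pyk2, the calcium-responsive relative of focal adhesion kinase. It gave 1682 and 2612 in the null pools of sets 1 and 2, against 2529 and 2861 in the wild-type pools. The null pool was the lower one in each set, although the null value of set 2 exceeded the wild-type value of set 1. On the log2 scale the difference was -0.35 ± 0.17 (SE, limma adjusted p = 0.265, with 2 pools of each genotype), with -0.58 in set 1 and -0.13 in set 2. With 1 array left out it lay anywhere from -0.663 to -0.0416, but those fits lack the set term, so the difference between the sets enters them. A second, dimmer probe set of Ptk2b read 314 and 101 in null pools and 677 and 506 in wild-type pools. Only 1 of these 4 values exceeded the unspecific level, and that probe set was not tested.

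Src, the kinase to which middle T binds, gave 3830 and 5435 in the null pools and 3814 and 5474 in the wild-type pools. The values of the genotypes were nearly identical within each set, and the ratio was -0.00 ± 0.12 (95% interval -0.25 to 0.25). Fyn, a second Src family kinase, gave 4789 and 4597 in null pools and 4336 and 3964 in wild-type pools. Its ratio was 0.18 ± 0.12 (limma adjusted p = 0.453). Its other tested probe set had 0.31 in set 1 and -0.23 in set 2. Yes1, the third member of that family here, gave 4178 and 2819 in null pools and 3929 and 2632 in wild-type pools, a ratio of 0.09 ± 0.13. Ilk encodes integrin-linked kinase, a pseudokinase that anchors parvins and PINCH proteins to integrins. It gave 8109.6 and 11596 in null pools and 8463 and 10709 in wild-type pools, a ratio of 0.03 ± 0.10. Rock1, the kinase through which RhoA drives contraction, had a ratio of 0.00 on its brightest probe set and between -0.16 and 0.13 over its 4 tested probe sets.

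Among the cytoskeletal linkers, 0 of 24 tested probe sets from 12 genes passed, and 2 (of Tln2 and Fermt2) had an unadjusted p under 0.05. On the brightest probe set 6 genes were higher in null pools in both sets (Fermt2, Actn1, Vasp, Zyx, Flna and Actn4), 3 were lower in both (Tln1, Tln2 and Parva) and 3 were mixed. Over all genes tested 31.8% were higher in both sets and 33.5% were lower in both, and over all 33 members the counts were 11 and 8. The linkers' ratios ran from -0.31 to 0.21 with a median of 0.03.

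Talins open integrins by binding their cytoplasmic tails. Tln2, the talin most abundant in muscle and brain, gave 5419 and 6262 in null pools and 7195 and 7273 in wild-type pools. The null pool was the lower one in each set. Its ratio was -0.31 ± 0.11 and its limma adjusted p of 0.102 missed the threshold, while the 95% interval ran from -0.54 to -0.08. The second tested probe set of Tln2 had -0.47 ± 0.24 (-0.09 in set 1 and -0.84 in set 2). Tln1, the broadly expressed talin, gave 12493 and 14693 in null pools and 13337 and 16362 in wild-type pools, a ratio of -0.12 ± 0.09.

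Vcl encodes vinculin, which reinforces the talin-actin bond under tension. It gave 15345 and 14857 in null pools and 15245 and 15539 in wild-type pools. The 4 pools differed little from each other, and the ratio was -0.03 ± 0.09 (95% interval -0.21 to 0.16). Fermt2, or kindlin-2, which helps talin open integrins, gave 20321 and 25537 in null pools and 16697 and 23235 in wild-type pools. Its ratio was 0.21 ± 0.09 (limma adjusted p = 0.175), and its 2 dimmer probe sets had 0.07 and -0.11. Actn1, encoding the crosslinker alpha-actinin-1, gave 15063 and 20713 in null pools and 13109.5 and 19045 in wild-type pools, a ratio of 0.16 ± 0.09. The other tested probe sets of Actn1 had 0.33 and -0.01, each with opposite signs in the sets. The other linkers lay closer to 0, with Flna (filamin A) at 0.06, Actn4 at 0.04, Zyx (zyxin) at 0.10, Vasp, which speeds actin filament growth, at 0.10, Parva (alpha-parvin) at -0.10, and Tns1 and Tns3 (tensins) at 0.02 and -0.01.

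Vcl and several actin genes are textbook targets of serum response factor, which binds the CArG box. Among the RefSeq promoter windows (GRCm38.p6), a CArG box, which reads alike on both strands in the form searched, lay within the 250 bases before the start in 482 of 32851 windows (1.47%). Windows were found for 30 of the members, and 2 of these genes, Vcl and Fermt2, had the box (2 of 40 windows, 5%). So had 1 of 20 other adhesion linkers, 0 of 29 other adhesion signalling genes and 0 of 7 other caveolar genes. Of 14 actomyosin genes with a window 3 had it, and 1 of these, Myl9 (a myosin light chain), is shown beside them because its transcript fell, as given further on. The stretches run 5′ to 3′ on the gene's strand with the box in capitals. That of Vcl is chr14:20929151-20929200 on the plus strand, that of Fermt2 chr14:45530240-45530289 on the minus strand and that of Myl9 chr2:156775283-156775332 on the plus strand.
Vcl: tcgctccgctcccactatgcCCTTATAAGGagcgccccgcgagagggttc
Fermt2: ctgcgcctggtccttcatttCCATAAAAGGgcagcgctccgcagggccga
Myl9: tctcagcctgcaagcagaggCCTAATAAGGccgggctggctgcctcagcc
The box starts 227, 204 and 161 bases before the start in Vcl, Fermt2 and Myl9. A match is a stretch of letters and shows no binding, and the log2 ratios beside these boxes were -0.03, 0.21 and -0.41. The ratios of the other listed genes with a box were not set beside them. As Myl9 was picked by its ratio, these 3 ratios cannot show whether genes with a box changed.

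**Figure D2:**
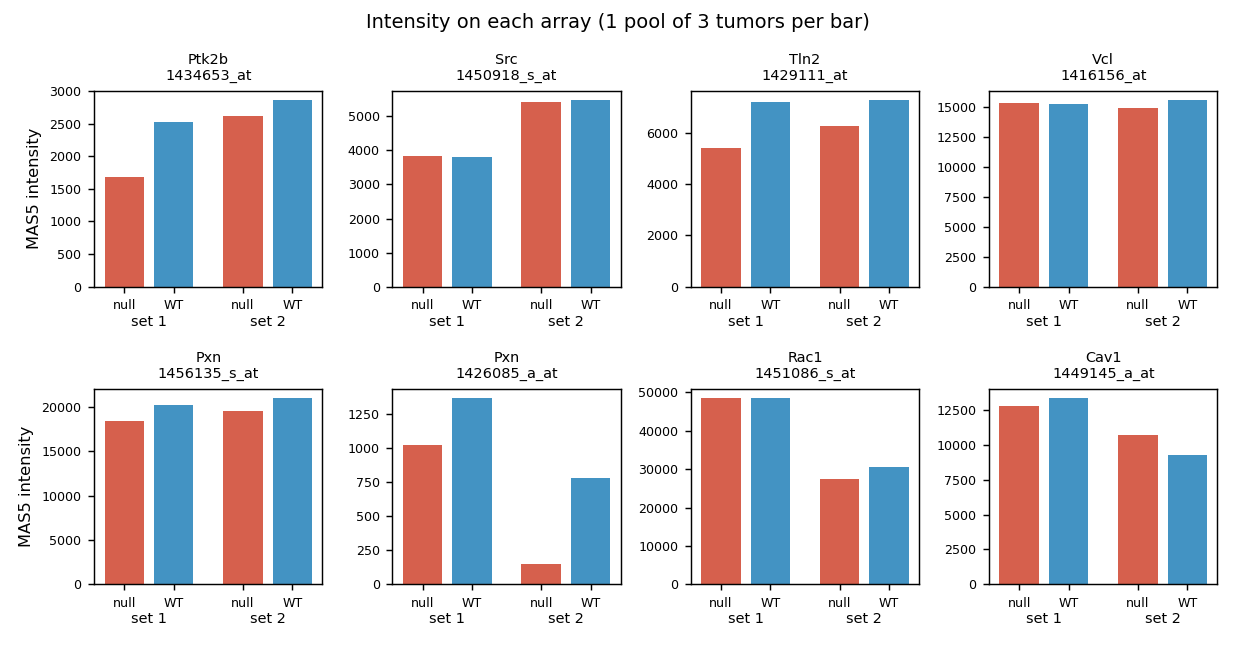
MAS5 intensity (y axis, linear from 0) of 8 probe sets of focal adhesion genes on each of the 4 arrays, with the null pool left of the wild-type pool of its set. Src and Vcl are level between genotypes, Tln2 is lower in both null pools, Rac1 is lower in set 2 than in set 1, and the dimmest Pxn probe set falls to 153 in the null pool of set 2.

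Adaptors and scaffolds carry phosphorylated tyrosines and protein-binding domains that recruit the signalling enzymes. Of their 16 tested probe sets (8 genes) 0 passed. On the brightest probe set 0 genes were higher in both sets and 4 were lower in both: Pxn, Bcar1, Tgfb1i1 and Crkl. Over all genes tested the shares were 31.8% and 33.5%, and the difference from these was not tested. The median was -0.06 and the range -0.27 to 0.25. Bcar1 encodes p130Cas, a scaffold that Src phosphorylates. It gave 4305 and 6115 in null pools and 5689.6 and 6765 in wild-type pools, a ratio of -0.27 ± 0.11 (limma adjusted p = 0.184), while its other tested probe set was higher in both sets at 0.22 ± 0.17. Its probe sets thus pointed in opposite directions. Tgfb1i1, or Hic-5, a paxillin relative, gave 3238 and 4222 in null pools and 4272 and 4302 in wild-type pools, with a ratio of -0.21 ± 0.13. The difference lay in set 1 (-0.40) and hardly in set 2 (-0.03). Crkl, an adaptor that links p130Cas to exchange factors, gave 11523 and 9002 in null pools and 11969 and 9919 in wild-type pools, a ratio of -0.10 ± 0.09.

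Paxillin (Pxn), the docking platform of the plaque, had 3 tested probe sets with unequal ratios. Its brightest probe set gave 18395 and 19527 in null pools and 20220.2 and 21021 in wild-type pools, a ratio of -0.12 ± 0.08. Its second had -0.04 ± 0.10. The third and dimmest gave 1023 and 153 in null pools and 1370 and 780 in wild-type pools, where only the null value of set 2 was within the unspecific level. Its ratio of -1.24 ± 0.41 missed the threshold (limma adjusted p = 0.0875) and rests on that value. In set 1, where both of its values were above the unspecific level, it was -0.41, against -0.14 and -0.12 for the other probe sets. Lims1, encoding PINCH-1, had -0.02 ± 0.10 on its brightest probe set, but another gave 6199 and 2336 in null pools and 6651 and 3976 in wild-type pools (-0.43 ± 0.15, adjusted p = 0.103). Here too the genotypes differed mainly in set 2, with -0.10 in set 1 and -0.76 in set 2. Crk had 0.03, Git1, a GTPase-activating scaffold, -0.00 and Lims2, or PINCH-2, 0.25 ± 0.29, a value that came from set 2 alone (-0.07 in set 1 and 0.56 in set 2).

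The GTPases and their exchange factors did not pass in any of 10 tested probe sets. Dock1, which with p130Cas and Crk activates Rac1, gave 7728 and 8413 in null pools and 6619 and 7077 in wild-type pools. Its ratios were 0.22 and 0.25 in the sets and 0.24 ± 0.10 over both (limma adjusted p = 0.190). Rac1, which drives lamellipodia, gave 48577 and 27491 in null pools and 48487 and 30694 in wild-type pools, a ratio of -0.08 ± 0.09. The second tested probe set of Rac1 had 0.12 ± 0.09 and was higher in null pools in both sets. Rhoa, which drives stress fibres, gave 24193 and 27765 in null pools and 24625 and 19514 in wild-type pools. The ratio of Rhoa was 0.24 ± 0.11 (adjusted p = 0.226), with -0.03 in set 1 and 0.51 in set 2, while its second tested probe set had -0.11 ± 0.09. Cdc42, which drives filopodia, gave 58869.6 and 64332 in null pools and 57618 and 60365 in wild-type pools (0.06 ± 0.08). Its other tested probe sets went the other way, with -0.03, -0.10 and -0.38. Arhgef7, or beta-PIX, had -0.02.

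Caveolins coat the flask-shaped pits of the plasma membrane and are abundant in fat and endothelium. Cav1 gave 12760.4 and 10710.2 in null pools and 13364 and 9251 in wild-type pools, a ratio of 0.07 ± 0.10 with opposite signs in the sets. Cav2 gave 16579.8 and 18194 in null pools and 16229.9 and 15413 in wild-type pools, a ratio of 0.13 ± 0.09 (limma adjusted p = 0.445).

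Kinases and cytoskeletal linkers did not separate. The median log2 ratio was 0.02 for the 6 kinases and 0.03 for the 12 linkers, a difference of -0.01. Within the sets the kinases' median minus the linkers' median was 0.03 in set 1 and 0.02 in set 2. These are descriptions of chosen genes and were not tested.

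Close relatives were set side by side, 11 pairs in all with both genes measured. In 8 of the 11 the same relative had the higher ratio in both sets, 7 of the 10 pairs with both genes tested and the pair with Parvb. Tln2 lay below Tln1 in both sets, with -0.41 against -0.09 in set 1 and -0.21 against -0.15 in set 2. Fyn lay above Src, with 0.14 against 0.01 in set 1 and 0.21 against -0.01 in set 2. The pairs Pxn and Tgfb1i1, Lims1 and Lims2, and Tns1 and Tns3 changed order between the sets. The differences within pairs were not tested.

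Many of these genes differed between the sets of pools. With genotype held as a term, limma called 26 of the 63 member probe sets (41.3%, against 23.6% of all probe sets tested), 13 higher and 13 lower in set 2 (11.1% and 12.5% of all probe sets), in 21 genes. Without the intensity trend limma called 0 of them. At or above the 75th percentile of mean intensity the shares were 47.7% of member and 34.5% of all probe sets. Rac1 fell to 27491 and 30694 in the null and wild-type pools of set 2, against 48577 and 48487 in those of set 1 (log2 -0.74 ± 0.09, adjusted p = 3.72e-05). The second tested probe set of Rac1 fell less, by 0.27 ± 0.09. One probe set of Rhoa fell by 0.72 on the log2 scale, with 13225 and 15371 in the null and wild-type pools of set 2 against 23433 and 23623 in those of set 1. The brightest probe set of Rhoa had -0.07 ± 0.11 and did not pass. Every tested probe set of Actn1 rose, by 0.50, 0.75 and 0.58. On their brightest probe sets Src rose by 0.51 ± 0.12 in set 2 and Yes1 fell by 0.57. The other tested probe set of Src had 0.27 ± 0.19 and did not pass. Their relative Fyn had -0.09 and 0.15 on its tested probe sets, neither of which passed. Ilk and Tns3 rose by 0.43 and 0.57, and Git1 rose by 0.70 ± 0.17.

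Of the 19 genes with over 1 tested probe set, 2 (Pxn and Tns3) had probe sets called in opposite directions between the sets. For Pxn the dimmest probe set fell by 1.61 and another rose by 0.41, and for Tns3 one fell by 0.72 and the other rose by 0.57. The dimmest probe set of Pxn rests here too on the null value of set 2, which is within the unspecific level. The dim probe set of Vcl gave 308 and 315 in the null and wild-type pools of set 2, both within that level, against 852 and 965 in set 1, so it has only a bound in set 2, while the bright one had -0.01 ± 0.09. One probe set of Lims1 fell by 1.06 and its brightest had -0.23. The Gapdh 3'/5' ratio was 2.13 (null) and 1.57 (wild type) in set 2 and 0.873 (null) and 0.869 (wild type) in set 1. For beta-actin the sets lay closer, with 2.12 (null) and 1.96 (wild type) in set 2 and 1.53 (null) and 1.63 (wild type) in set 1. The part of RNA integrity and labelling in the set differences was not tested. The labels do not say what else separated the sets.

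**Figure D3:**
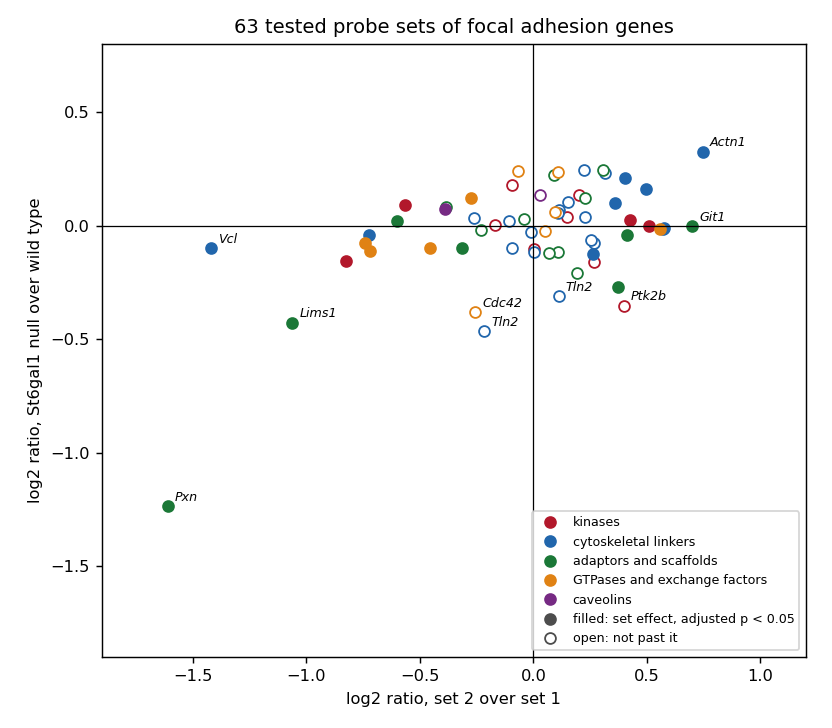
Log2 ratio of St6gal1 null over wild type (y axis) against log2 ratio of set 2 over set 1 (x axis) for the 63 tested probe sets of focal adhesion genes, coloured by role. Filled points passed the threshold for the set (26), and 0 passed for genotype. The points spread more along the set axis, from -1.61 (Pxn) to 0.75 (Actn1), than along the genotype axis.

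Other genes of the adhesion pathway were read from the same fit for context. Among 51 tested probe sets of other adhesion linkers 5 passed (9.80%, against 7.30% of all probe sets tested). Of these, 1 was higher and 4 were lower in null pools. Limd1, a LIM protein of the zyxin family, gave 2912 and 4823 in null pools and 6103 and 9136 in wild-type pools. It fell by 0.99 ± 0.11 (adjusted p = 6.02e-05), and its second probe set fell by 0.46. Rsu1, which binds PINCH-1, fell by 0.32 (adjusted p = 0.0493). For Lpp 1 of 7 probe sets fell, by 0.57, with the other 6 between -0.20 and 0.14, and for Fblim1 (migfilin) 1 of 2 rose, by 0.32, with the other at -0.08.

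Among 75 tested probe sets of other adhesion signalling genes 5 passed (6.67%, against 7.30% of all probe sets tested). All of them were lower, and they came from 2 genes. Every one of the 4 tested probe sets of Pik3r1, the p85alpha regulatory subunit of PI3-kinase, fell. The brightest gave 48596 and 25420 in null pools and 76491 and 41193 in wild-type pools (fell by 0.67 ± 0.08, adjusted p = 1.23e-04), and the others fell by 0.68, 0.73 and 0.38. Arhgef6, or alpha-PIX, the relative of Arhgef7, fell by 0.32 on its bright probe set, while a dim one had 0.51 ± 0.33. Of 12 probe sets of other caveolar genes 0 passed in limma (3 at an unadjusted p under 0.05).

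Genes of the contractile actomyosin machinery had 8 calls among 34 tested probe sets (23.5%, against 7.30% of all probe sets tested), 1 higher and 7 lower. Mylk, the kinase that phosphorylates myosin light chain, gave 9447 and 11044 in null pools and 18419 and 19203 in wild-type pools. It fell by 0.88 ± 0.09 (adjusted p = 2.22e-05) and by 0.60 on a second probe set. Myh11, smooth muscle myosin, fell by 0.78 and Actg2, smooth muscle gamma-actin, rose 1.70-fold. For Myh9, a nonmuscle myosin, 1 of 5 probe sets fell, by 0.46, and the other 4 lay between -0.33 and 0.13. Named after their values were seen, Myl9 fell by 0.41, Ppp1r12a by 0.37 and Tpm1 by 0.29 on their leading probe sets. The tested probe sets that did not pass lay between -0.68 and -0.01 for Ppp1r12a (3) and at -0.27 and -0.10 for Tpm1 (2). All 18 calls in these lists rest on the set term and the intensity trend of the fit, since limma without either called 0 there. Over all tested probe sets of these lists, 41 had an unadjusted limma p under 0.05 in the main fit. Without the set term 9 did, and without the trend 29. The difference between these lists and the members was not tested.

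**Figure D4:**
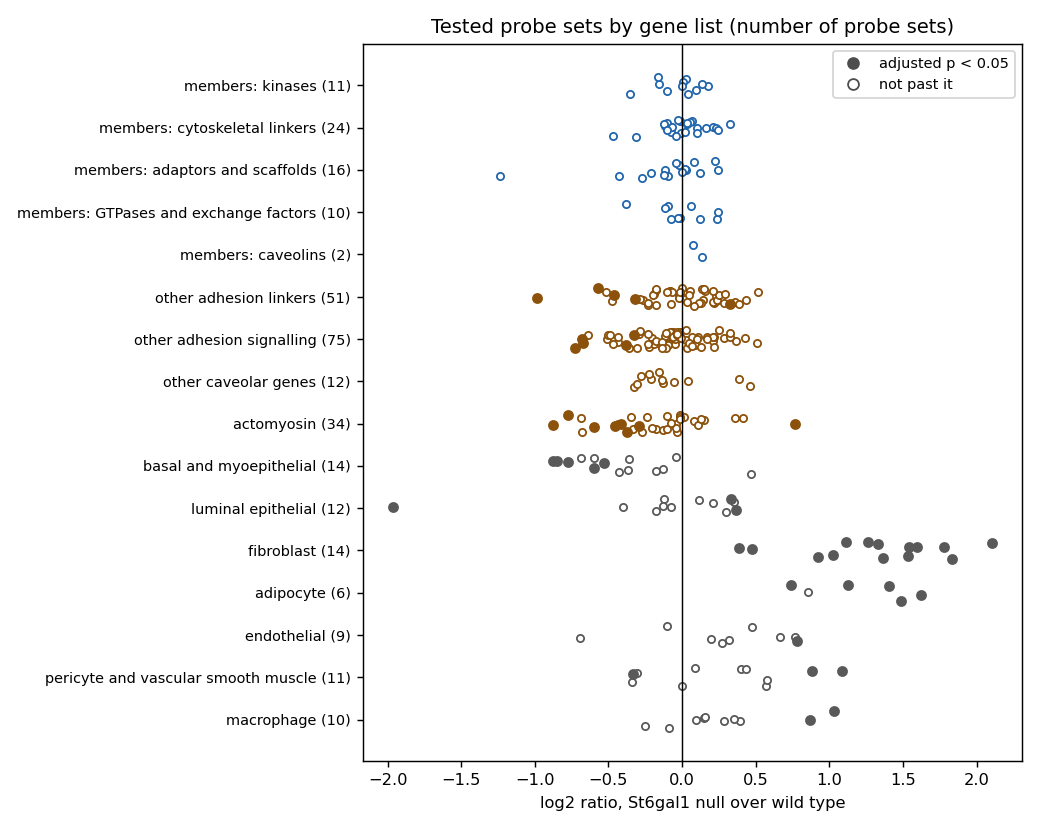
Log2 ratio of St6gal1 null over wild type (x axis) for every tested probe set, by gene list (rows, with the number of probe sets). Filled points passed adjusted p 0.05. None of the 63 member probe sets (top 5 rows) is filled, while 8 actomyosin and all 14 fibroblast marker probe sets are.

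Markers of other cells of the tumor were read from the same fit, and their difference from the members was not tested. Over all probe sets tested, limma called 4.05% higher and 3.25% lower in null pools. All 10 fibroblast markers rose, their brightest probe sets summing to 345677 and 392820 in null pools and 162559 and 166843 in wild-type pools. Of 5 adipocyte markers tested 4 rose. The sums over all 7 adipocyte markers with a probe set, tested or not, were 61475 and 54671 in null pools and 25099 and 22536 in wild-type pools. Of 10 basal and myoepithelial markers 4 fell (Mylk, Myh11, Oxtr and Krt5) and 0 rose, with sums of 147103 and 156019 in null pools and 182222 and 186866 in wild-type pools. Mylk and Myh11 stand in the actomyosin list as well. Of 7 endothelial markers 1 rose, of 6 pericyte and vascular muscle markers 2 rose and 1 fell, of 8 macrophage markers 2 rose, and of 7 skeletal muscle markers 3 rose. Of 7 luminal markers 2 rose and 1 fell, of 2 platelet markers 1 rose, and the single lymphocyte and erythrocyte markers tested did not pass. As with the pathway calls, limma without the set term or without the intensity trend called 0 of these marker probe sets. Over all tested marker probe sets, 59 had an unadjusted limma p under 0.05 in the main fit. Without the set term 35 did, and without the trend 50. The part of these shifts in the members' ratios was not tested.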

How the data were processed

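Intensities were deposited as linear probe set signals that the authors made with MAS5, per the submitters' processing notes (with no version stated). MAS5 scales each array, and all 4 arrays had a mean of 2500.01 after trimming 2% at each end, so the deposited values were used as they stand. Detection calls were not used. The 64 control probe sets were left out, leaving 45037, of which 34945 had 1 gene symbol, 932 several and 9160 none. Only those with 1 symbol were named.

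Values were turned into log2(intensity + 44), 44 being the 10th percentile, which understates changes of dim genes. The brighter 22519 probe sets, those averaging at least the median of 590.6, were fitted with limma 3.58.1 (lmFit, eBayes with an intensity trend) in R 4.3.3, on genotype plus set, and p-values were adjusted by Benjamini-Hochberg (threshold 0.05). The sets come from the design text, and arrays of the same set deviated together (correlation 0.605). There was 1 residual and 13 prior degrees of freedom. On simulated arrays (5 runs of 22519 probe sets, 200 changed) the fit recovered 42.1% of 1.5-fold, 72.2% of 2-fold and 92.1% of 3-fold changes. Of its calls there, 15.4% were unchanged probe sets. The noise was drawn from the fit's own spread and intensity trend, so these rates assume the model on which the calls rest. An exact permutation test of 2 against 2 arrays cannot go below p = 0.333, so none was used.

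The members, lists and tests were chosen with earlier results of these data known. Array values were given for core members, for up to 4 members per role with the largest ratios of the same sign in both sets, for those with the largest set effects and for probe sets that disagree with these (named after seeing values). The Y-linked level was also set after seeing the data. Of pathway genes up to 4 called ones per list were named. The number of arrays limits precision. With the set as a term, differences between the sets are taken out of the spread that the p-values measure. That spread had 1 residual degree of freedom, and 13 prior ones drawn from all tested probe sets along the intensity trend.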

Additional observations from a re-analysis of the deposited data

How the results depend on the processing

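The 0 calls among members held under every alternative that was run: quantile and cyclic loess normalization, other pseudocounts (1 and 176) and filters, no set term, no trend, and each array left out. None of the 20 members given array by array passed under any of the 12 tested alternatives. The calls elsewhere depended on the fit. Without the replicate block, and likewise without the intensity trend, limma called 0 probe sets (1280 and 3486 at an unadjusted p under 0.05), 0 pathway and 0 marker probe sets, against 1645, 18 and 37. Without the trend it also called 0 for the set, 0 of them members. With 1 array left out, and so no set term, the calls were 4 to 27 in all, 0 in the pathway lists and 0 to 4 among markers. The medians then ran from -0.0404 to 0.115 (members), -0.0622 to 0.0530 (kinases) and -0.0628 to 0.130 (linkers), and kinases minus linkers from -0.0770 to 0.00936. The kinase median was 0.0189 with quantile normalization, 0.0266 with the 75th percentile filter, 0.0469 in set 1 alone, 0.0435 in set 2 alone and -0.00201 over all probe sets of a gene. The linker median was 0.0132 in set 1 alone and 0.0455 over all probe sets. Kinases minus linkers was 0.0336 in set 1 alone, 0.0164 in set 2 alone and -0.0475 over all probe sets, so its sign is not settled. The members' median in set 1 was -0.0250 with quantile normalization. Src turned to 0.0129 under quantile and 0.00965 under cyclic loess normalization. Leaving out 1 array turned the sign of 10 members, all short of the threshold: Src ran from -0.260 to 0.256, Cav1 from -0.192 to 0.336, Yes1 from -0.193 to 0.377, Ilk from -0.230 to 0.283, Rac1 from -0.488 to 0.332, Fermt2 from -0.0285 to 0.447, Actn1 from -0.108 to 0.429, Crkl from -0.274 to 0.0804, Cdc42 from -0.00259 to 0.125 and Tln1 from -0.271 to 0.0227. Among members that kept their sign, Ptk2b ran from -0.663 to -0.0416, Bcar1 from -0.523 to -0.0207, Tgfb1i1 from -0.400 to -0.0217 and Rhoa from 0.0737 to 0.409. These fits also lack the set term. The cause of the other shifts was not tested.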
